A study of Mus musculus with 2 samples.

Results

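The cells described here were 436 retinal progenitors of the e13.5 mouse eye cup that carried transcripts of the ciliary margin, chosen from 12793 barcodes of 2 single cell libraries. A barcode was a member when it had at least 200 genes and at most 15% mitochondrial transcripts, at least 1 transcript of at least 2 of the margin genes *Msx1*, *Wfdc1*, *Otx1* and *Zic1*, and at least 1 of at least 2 of the eye field genes *Six3*, *Six6*, *Rax* and *Pax6*. Members also had no transcript of the pigment genes *Mlana* and *Tyr*, the mesenchyme genes *Col3a1* and *Twist1*, the neurogenic gene *Atoh7*, the photoreceptor gene *Crx* or the optic stalk gene *Pax2*. The control library gave 207 members and the mutant library gave 229.

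The control library came from *Myrf* fl/fl embryos and the mutant library from *Rx>cre Myrf* fl/fl embryos, so that floxed alleles of *Myrf*, which encodes a membrane-associated transcription factor, were present in both. In the mutant, Cre recombinase under the control of *Rx* removes *Myrf* across the eye field lineage, which includes both neural retina and pigment epithelium. Each library held 3 pooled eye cups of the same age, taken after cornea, lens and optic nerve had been removed. Transcripts were counted on the 10X Genomics platform, in which every captured transcript carries a unique molecular identifier (UMI). With 1 library per genotype the spread between replicates is unknown, and nothing was tested. All intervals in parentheses are at the 95% level and cover counting error only.

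The ciliary margin is the rim of the optic cup, where the neural retina meets the pigment epithelium. Its progenitors give rise to the ciliary body and iris, and some of its cells add neurons to the retina. Wnt and BMP signals specify this rim, while FGF signals and neurogenic factors mark the central retina, and the rim expresses *Ccnd2* where the central retina uses mainly *Ccnd1*.

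The control library held 63483835 UMIs in 6039 barcodes and the mutant library held 75228861 in 6754. After filtering, 5519 and 6374 barcodes were kept. The libraries shared 72 barcode sequences, and no member was among them. Members were deeply sequenced, with a median of 19779 UMIs and 4259 genes per control member and 16870 UMIs and 3894 genes per mutant member. The level of a gene in a class is its UMIs per 1000000 UMIs of that class (CPM).

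The 4 margin genes chose the members and are described without comparison. *Wfdc1*, a secreted protease inhibitor homologue, had 194 CPM (180 to 207) in control members and 223 CPM (208 to 238) in mutant members. *Zic1*, a zinc finger transcription factor, had 118 CPM (108 to 129) and 119 CPM (108 to 130). *Otx1*, a homeodomain factor required for the ciliary body, had 40.7 CPM (34.8 to 47.4) and 37.4 CPM (31.6 to 43.9). *Msx1*, a homeodomain factor of the margin downstream of BMP, had 4.39 CPM (2.60 to 6.93) and 5.30 CPM (3.28 to 8.11). The members therefore entered mainly through *Wfdc1* and *Zic1*. Exactly these 2 genes were present in 100 of 207 control and 110 of 229 mutant members, and *Wfdc1*, *Otx1* and *Zic1* together in 56 and 55. Only 11 control and 17 mutant members had a UMI of *Msx1*, or 5.31% and 7.42% of them.

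The label of ciliary margin rested on these few genes, and some markers of the distal margin were scarce. *Wls*, a carrier of Wnt ligands, was found with 7 UMIs over all control members and 11 over all mutant members. *Mitf*, a transcription factor of pigment epithelium and the outermost margin, had 4.87 CPM (2.98 to 7.53) and 6.82 CPM (4.49 to 9.92), against 171 CPM and 146 CPM in cells with pigment epithelium markers. Most of the cells, not all, thus had both *Wfdc1* and *Zic1*, and they are called margin cells below by the rule alone.

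Depth entered the rule, because a deep cell is more likely to show a UMI of 2 margin genes. Cells that met every other part of the rule had a median of 12654 (control) and 12721 UMIs (mutant) when they had exactly 1 margin gene. With exactly 2, just inside the threshold, the medians were 18517.5 and 15659 UMIs. There were 299 and 317 cells just outside it against 142 and 165 just inside. When each cell was thinned to 5000 UMIs, leaving out shallower cells, the rule kept 95 of 3676 control and 112 of 4582 mutant cells. The exclusion genes removed 211 of 418 control and 171 of 400 mutant cells that met both positive parts of the rule, and *Atoh7* alone removed 104 and 70 of them.

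Co-detection of margin genes was described in all cells of the eye field gate, before the rule picked members. Among thinned cells of the eye field gate, which is the rule without its margin genes, *Zic1* was detected in 29.8% (23.7 to 36.4) of control cells with *Wfdc1* and 24.0% (20.8 to 27.4) of those without. In the mutant library these shares were 32.4% (26.5 to 38.7) and 17.7% (15.1 to 20.6). *Zic1* was detected in 33.3% and 34.3% of cells with *Otx1* and 24.8% and 20.1% of those without, and *Wfdc1* in 38.6% and 38.6% of cells with *Otx1* and 23.1% and 22.0% of those without. For these 3 pairs the intervals overlapped in the control library and did not overlap in the mutant library. In thinned red blood cells, which should lack these genes, *Zic1* was detected in 0% of 179 control and 0.253% of 396 mutant cells. Red blood cells had unthinned medians of 22891.5 and 22932 UMIs.

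Margin cells were compared with other retinal progenitors of the same library. These had at least 2 of the 4 eye field genes and none of the margin, exclusion or 7 neuronal genes, and numbered 339 control and 451 mutant cells. Their medians were 5647 and 6296 UMIs, well below those of margin cells. A gene was called when both classes together had at least 20 UMIs, the difference was at least 2-fold and its interval did not reach 0. In the control library 235 of 10303 genes were called higher in margin cells (2.28%) and 209 lower (2.03%). In the mutant library 341 of 10561 were called higher (3.23%) and 231 lower (2.19%).

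**Figure D1:**
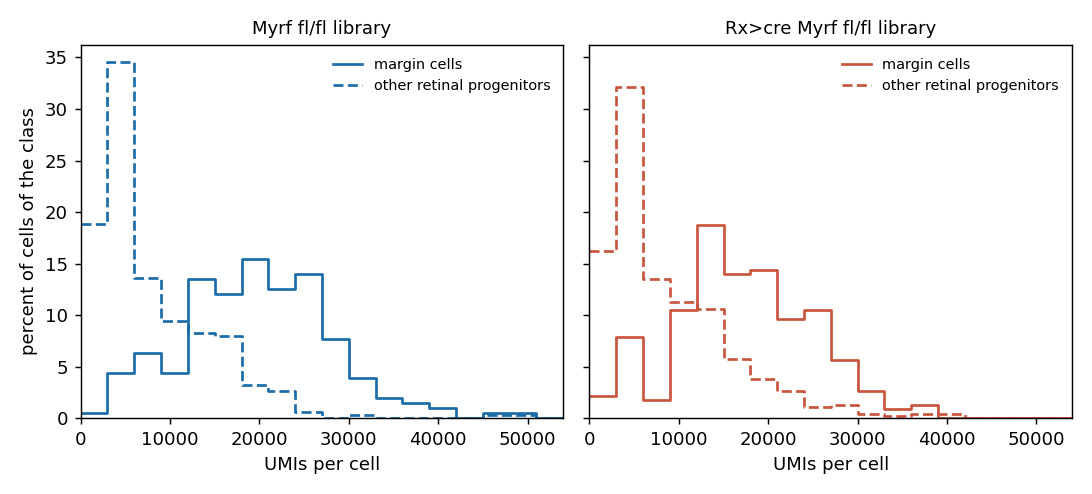
UMIs per cell (x axis) against the percent of cells of the class (y axis, bins of 3000 UMIs) in the control (left) and mutant (right) library. Margin cells (solid) had medians of 19779 and 16870 UMIs and other retinal progenitors (dashed) medians of 5647 and 6296.

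At all depths, haemoglobin and macrophage transcripts were scarcer in margin cells than in other progenitors. Haemoglobin took 2.98% of the UMIs of control and 9.06% of those of mutant other progenitors, against 0.0456% and 0.179% in margin cells. At 8000 to 20000 UMIs the most abundant haemoglobin gene, Hbb-y, was instead called higher in margin cells of both libraries, with log2 ratios of 1.25 and 1.46. Hba-x was called higher in the mutant library, at 1.34, where 1.87% and 1.93% of all genes were called higher in the control and mutant library. At that depth 5 of 7 red blood cell genes were called lower in each library, against 0.987% and 1.12% of all genes. The 6 macrophage genes summed to 273 CPM and 252 CPM in other progenitors and 3.41 CPM and 2.53 CPM in margin cells, with *C1qb* the most abundant in other progenitors. By these and similar markers, 28 of 339 and 39 of 451 other progenitors could be other cells, against 6 of 207 and 13 of 229 margin cells. The part of this makeup and of depth in the single values below was not tested, but calls were repeated without such cells and among cells of 8000 to 20000 UMIs. Of 10121 genes assessed in both libraries, 94 were called higher in both (0.929%) and 111 lower in both (1.10%). In both libraries and in both of these repeats, 32 genes were called higher (0.316%) and 7 lower (0.0692%). Below, called throughout means called in these comparisons only, and some such genes were not called under other settings.

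**Figure D2:**
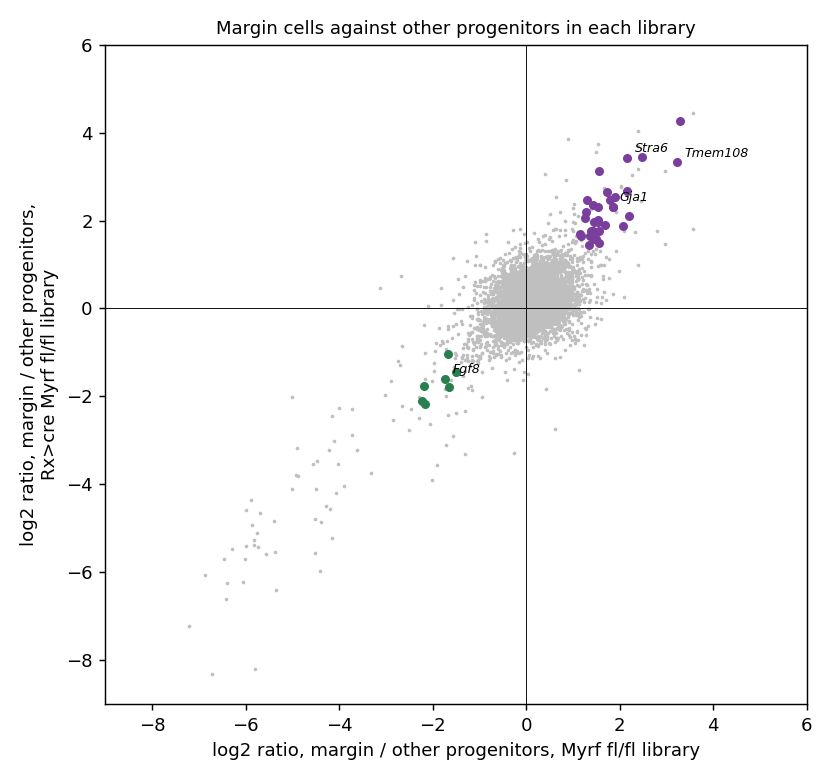
Each point is a gene with at least 50 UMIs over both classes and libraries, with its log2 ratio of margin cells over other progenitors in the control (x axis) and mutant (y axis) library. Purple points are the 32 genes called higher in both libraries and both repeats, green points the 7 called lower, and grey points at the lower left include blood and macrophage genes.

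The list of margin genes outside the rule was chosen with earlier results of these data known. Margin genes that the rule did not use were mostly called higher in margin cells than in other progenitors. Of 14 such genes with enough UMIs in the control library, 8 were called higher, against 2.28% of all genes, and none lower. All 14 had a ratio above 0, and the median log2 ratio was 1.06 against 0.10 over all genes. In the mutant library 10 of 13 were called higher, against 3.23% of all genes, and none lower. All 13 were above 0, and the median was 1.76 against 0.18. Among cells of 8000 to 20000 UMIs, 5 of 11 and 7 of 11 were called higher, against 1.87% and 1.93% of all genes at that depth. Their summed level was 1189 CPM and 1157 CPM in margin cells, and 1275 CPM and 1172 CPM in cells with pigment epithelium markers, so that the list did not set margin cells apart from those cells. There *Gja1* had 226 CPM and 169 CPM and *Ccnd2* 159 CPM and 218 CPM, above their levels in margin cells, whereas *Col9a1* had 30.1 CPM and 78.2 CPM.

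*Ccnd2*, the D-type cyclin of the margin, had 101 CPM (91.2 to 111) in control margin cells and 102 CPM (92.1 to 112) in mutant margin cells. Other progenitors had 42.0 CPM (34.6 to 50.4) and 24.4 CPM (19.8 to 29.8), so that the classes did not overlap in either library. The log2 ratio was 1.25 (0.96 to 1.58) for control and 2.05 (1.74 to 2.40) for mutant cells, and 2.01 and 2.44 among cells of 8000 to 20000 UMIs. With each cell given the same weight, the control ratio of *Ccnd2* was 0.15 and was no longer called. *Ccnd1*, the cyclin of central progenitors, had 492 CPM and 576 CPM in margin cells and 747 CPM and 850 CPM in other progenitors. Its log2 ratios of -0.60 (-0.69 to -0.51) and -0.56 (-0.64 to -0.48) lay below 0 and did not reach 2-fold.

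*Gja1*, which encodes the gap junction protein connexin 43 that joins the layers of the ciliary body, had 33.1 CPM (27.8 to 39.2) in control and 35.1 CPM (29.5 to 41.5) in mutant margin cells. Other progenitors had 8.91 CPM (5.71 to 13.3) and 6.86 CPM (4.52 to 9.98). The log2 ratios of *Gja1* were 1.85 (1.26 to 2.59) and 2.31 (1.75 to 3.01). *Gas1*, a co-receptor for hedgehog ligands, had 100.4 CPM and 98.5 CPM against 38.2 CPM and 29.0 CPM, with log2 ratios of 1.38 and 1.76. *Bmp4*, a BMP ligand of the dorsal retina and margin, was low at 6.09 CPM (3.94 to 8.995) and 3.54 CPM (1.93 to 5.93), and was called higher in the control library only. *Bmp7*, another BMP ligand, had 10.5 CPM and 15.2 CPM in margin cells and 5.57 CPM and 1.78 CPM in other progenitors, and was called in the mutant library. Without cells of other types *Bmp7* was called in the control library too, at 1.09. Of 16 control and 17 mutant BMP and TGF-beta genes assessed, 1 and 2 were called higher, against 2.28% and 3.23% of all genes. *Id4* was called lower in the mutant library (1 of 17, against 2.19%), and in both libraries without cells of other types (against 0.850% and 1.06%). At 8000 to 20000 UMIs 0 of 14 such genes were called higher in either library, and *Id4* was called lower in the mutant library, against 1.12%.

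*Col9a1* and *Mecom*, called in both libraries and both repeats, are shown with the promoter window in which a Wnt-related motif was found. *Col9a1*, a collagen of the vitreous and ciliary epithelium, had 401 CPM (382 to 421) and 380 CPM (361 to 400) in margin cells against 178 CPM (162 to 195) and 121 CPM (111 to 133), with log2 ratios of 1.17 and 1.64. *Mecom*, a zinc finger transcription factor, had 28.0 CPM (23.1 to 33.6) and 28.3 CPM (23.3 to 34.0) against 8.17 CPM (5.12 to 12.4) and 4.32 CPM (2.52 to 6.91), with log2 ratios of 1.73 and 2.64. The motif was CTTTGA or its reverse complement TCAAAG, the core bound by the LEF and TCF factors of the Wnt pathway, searched on both strands of the 250 bases before each RefSeq gene start on GRCm38.p6. It was found in 4544 of 32851 windows (13.8%), and in 7 of 38 windows (18.4%) of the 24 genes with a window among the 32 called higher throughout. By gene it was found in 4280 of 27025, and in 6 of the 24. Besides *Col9a1* and *Mecom* these were *Necab2*, *Slc6a13*, *Stra6* and *Trpm1*, whose windows are not printed. *Col9a1* and *Mecom* each have 2 annotated starts with a window, and for each the motif was found in 1 of the 2 windows. The windows that hold it are chr1:24177360-24177609 on the plus strand for *Col9a1* and chr3:30509760-30510009 on the minus strand for *Mecom*, with the motif in capitals:
Col9a1: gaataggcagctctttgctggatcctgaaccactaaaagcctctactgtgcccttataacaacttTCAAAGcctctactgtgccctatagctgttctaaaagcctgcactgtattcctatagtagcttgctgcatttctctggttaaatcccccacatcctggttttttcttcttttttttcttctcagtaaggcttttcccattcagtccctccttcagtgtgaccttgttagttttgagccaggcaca
Mecom: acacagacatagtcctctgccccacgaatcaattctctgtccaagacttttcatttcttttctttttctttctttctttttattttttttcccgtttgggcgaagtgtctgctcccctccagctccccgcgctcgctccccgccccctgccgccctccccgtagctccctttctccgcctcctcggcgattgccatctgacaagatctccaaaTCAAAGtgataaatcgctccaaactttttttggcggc
A match says only that these letters are present, and binding was not measured.

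**Figure D3:**
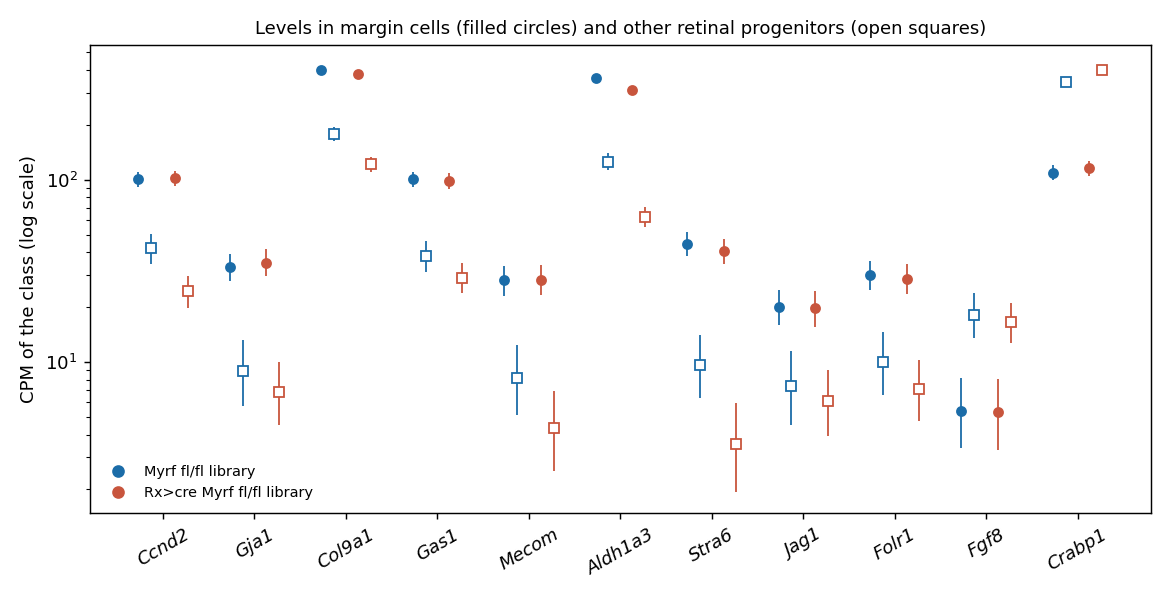
Levels (y axis, CPM of the class, log scale) of 11 genes in margin cells (filled circles) and other retinal progenitors (open squares) of the control (blue) and mutant (red) library, with 95% Poisson intervals. Of the first 9 genes each margin value lies above both values of other progenitors, and for Fgf8 and Crabp1 below them.

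Outside these lists, the highest ratios named by size in both libraries were those of *Tmem108*, *Galnt12*, *Rab38*, *Ltbp1*, *Stra6*, *Filip1*, *Gap43*, *Abca4*, *Ociad2*, *Cgn*, *Shisa2* and *Adamts9*. *Tmem108*, a transmembrane protein, had 27.5 CPM (22.7 to 33.1) and 20.2 CPM (16.02 to 25.1) in margin cells and 2.60 CPM (1.05 to 5.36) and 1.78 CPM (0.715 to 3.66) in other progenitors. Its log2 ratios were 3.23 and 3.33. *Galnt12*, an enzyme that starts O-linked glycans, had 22.7 CPM and 22.0 CPM against 3.71 CPM and 1.78 CPM. Both genes were low in other progenitors of both libraries. *Cgn*, the tight junction protein cingulin, had 16.8 CPM and 14.6 CPM against 3.71 CPM and 3.81 CPM, and *Shisa2*, an inhibitor of Wnt and FGF receptor maturation, 95.3 CPM and 87.1 CPM against 26.0 CPM and 17.3 CPM. *Rab38*, which carries cargo to melanosomes, and the transforming growth factor binding protein *Ltbp1*, the lipid transporter *Abca4* and the protease *Adamts9* were not called in both libraries at 8000 to 20000 UMIs. *Gap43*, a growth cone protein, depended on the comparator, since its log2 ratios of 2.19 and 2.11 became -0.84 and -1.10 when progenitors with neuronal genes were kept among the others.

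Some genes of retinoid and folate handling, singled out after their values were seen and not counted as a list, went in both directions. *Stra6*, *Aldh1a3* and *Folr1* were called higher in both libraries and both repeats, and *Crabp1* lower, whereas *Rdh10* and *Aldh1a1* were not called in both repeats. *Stra6*, the receptor that takes up retinol from its binding protein, had 44.6 CPM (38.4 to 51.6) and 40.7 CPM (34.6 to 47.5) in margin cells and 9.65 CPM (6.31 to 14.1) and 3.56 CPM (1.94 to 5.97) in other progenitors. *Rdh10*, which oxidises retinol, had 31.0 CPM and 36.4 CPM against 15.2 CPM and 12.2 CPM. *Aldh1a3*, the ventral enzyme that makes retinoic acid, had 364 CPM (345 to 383) and 310 CPM (293 to 328) against 126 CPM (113 to 140) and 62.5 CPM (54.9 to 70.8). *Aldh1a1*, the dorsal enzyme, had 396 CPM and 519 CPM against 195 CPM and 117 CPM, and its log2 ratio at 8000 to 20000 UMIs was 0.70 (control) and 2.74 (mutant). *Crabp1*, which binds retinoic acid in the cytoplasm, had 109 CPM (99.6 to 120) and 116 CPM (105 to 127) in margin cells and 344 CPM (322 to 367) and 401 CPM (381 to 421) in other progenitors. *Folr1*, a folate receptor, had 29.98 CPM and 28.5 CPM against 10.03 CPM and 7.11 CPM.

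Margin cells carried transcripts of both ventral and dorsal retina genes. The 7 ventral genes summed to 630 CPM (606 to 655) in control and 541 CPM (518 to 564) in mutant margin cells, with *Aldh1a3* the most abundant. The 7 dorsal genes summed to 498 CPM (477 to 521) and 632 CPM (607 to 657), with *Aldh1a1* the most abundant, so that the order of the sums differed between the libraries. Other progenitors carried both as well, with ventral sums of 296 CPM and 197 CPM and dorsal sums of 290 CPM and 203 CPM. *Vax2*, the ventral homeodomain factor, was found in 142 of 207 control members, or 68.6% (61.8 to 74.9), and in 129 of 229 mutant members, or 56.3% (49.6 to 62.9). *Tbx5*, the dorsal T-box factor, was found in 12 and 18 members. Both were found in 4 control members and in 0 of 229 mutant members, which allows up to 1.60% of cells with a UMI of both and does not limit cells that express both. Neither was found in 57 control and 82 mutant members. In red blood cells, *Vax2* was found in 3.92% of control and 3.13% of mutant cells, and *Tbx5* in 0% and 0.209%. Against other progenitors *Tbx5* was called higher in both libraries at all depths, and in the mutant library alone in both repeats. Between genotypes *Tbx5* was not called in margin cells at all depths, and was called higher in the mutant at 8000 to 20000 UMIs, at 2.38. The level of *Vax2* in margin cells was 213 CPM and 170 CPM, against 122 CPM and 92.5 CPM in other progenitors, and neither log2 ratio (0.80 and 0.87) reached 2-fold.

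Of the 18 Wnt pathway genes assessed in each library, 4 were called higher in margin cells and none lower, where 2.28% and 3.23% of all genes were called higher. The median log2 ratios were 0.14 and 0.41, against 0.10 and 0.18 over all genes. The receptor gene *Fzd1*, the transcription factor genes *Tcf7* and *Lef1* and the ligase gene *Znrf3* were called in the control library. *Fzd8*, *Tcf7*, *Lef1* and *Notum*, which encodes an inhibitor of Wnt ligands, were called in the mutant library. *Lef1* had 8.29 CPM (5.74 to 11.6) and 8.33 CPM (5.74 to 11.7) in margin cells against 2.23 CPM (0.818 to 4.85) and 3.56 CPM (1.94 to 5.97). *Tcf7* had 6.34 CPM and 6.82 CPM against 1.86 CPM and 2.29 CPM. *Axin2*, a direct target of the pathway, had only 12 and 8 UMIs over all margin cells, too few for a comparison. At 8000 to 20000 UMIs, where *Lef1* and *Tcf7* had under 20 UMIs in each library, 0 of 12 and 0 of 13 Wnt pathway genes were called, with medians of -0.02 and 0.06.

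In the FGF pathway 1 of 14 genes was called lower in both libraries, against 1.10% of all genes. This was *Fgf8*, a ligand of the central retina and optic stalk, with 5.36 CPM (3.36 to 8.12) and 5.30 CPM (3.28 to 8.11) in margin cells and 18.2 CPM and 16.5 CPM in other progenitors. The log2 ratios of *Fgf8* were -1.73 (-2.56 to -1.01) and -1.59 (-2.42 to -0.91). *Fgfr2*, a receptor of the pathway, was called higher in the mutant library, with a log2 ratio of 1.54. At 8000 to 20000 UMIs, *Fgf8* was called lower in both libraries, *Fgf3* (-1.17) and *Etv5* (-1.07) lower in the mutant library and *Spry2* (1.15) higher in the control library. At that depth 0.987% and 1.12% of all genes were called lower. Without cells of other types *Fgf8* and *Fgf3* were called lower in both libraries and *Etv5* in the mutant library. There 0.850% and 1.06% of all genes were called lower. In the Notch pathway, the ligand gene *Jag1* was called higher in both libraries, with 19.99 CPM (15.9 to 24.8) and 19.7 CPM (15.6 to 24.6) against 7.43 CPM (4.54 to 11.5) and 6.10 CPM (3.91 to 9.07). *Hes5*, a Notch target, lay lower without reaching 2-fold, with 173 CPM and 133 CPM in margin cells and 245 CPM and 202 CPM in other progenitors. *Notch1* was called lower in the control and *Lfng* in the mutant library.

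Of 11 neurogenesis genes assessed, none was called higher in margin cells of either library at all depths, while *Tubb3*, a neuronal tubulin, was called higher in the control library at 8000 to 20000 UMIs, at 1.23. Neuronal genes were barred from other progenitors alone, and 43 control and 50 mutant margin cells had a UMI of such a gene. *Insm1*, *Gadd45a* and *Stmn2* were called lower in the control library. At 8000 to 20000 UMIs *Insm1* was called lower in both libraries, at -1.91 and -1.13, and without cells of other types it was called lower in both as well. Of 16 neural progenitor genes outside the rule, *Notch1* and *Nfia* were called lower in the control library (2 of 16, against 2.03% of all genes), and *Meis2* was called higher in the mutant library (1 of 16, against 3.23%). Without cells of other types *Meis2* was called higher in both libraries, and *Nfia* was not called. Their median log2 ratios were 0.00 and -0.06, with 8 and 7 genes above 0. *Sox2*, a factor that maintains progenitors, had 224 CPM and 243 CPM in margin cells and 229 CPM and 243 CPM in other progenitors. The 20 S phase and 20 G2 and M phase genes gave no call in either library, at all depths or at 8000 to 20000 UMIs. The sign of the G2 and M phase ratios depended on depth, with 16 and 15 of 20 above 0 and medians of 0.17 and 0.07 at all depths, but 2 and 0 of 20 above 0 and medians of -0.25 and -0.49 at 8000 to 20000 UMIs. Without cells of other types, 18 and 4 of 20 were above 0.

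The remaining genes called higher throughout included *Mab21l2*, required for growth of the optic cup, with 208 CPM and 203 CPM in margin cells against 63.9 CPM and 54.4 CPM. *Myc*, a transcription factor of growth, had 15.8 CPM and 15.4 CPM against 5.57 CPM and 2.79 CPM. *Smoc1*, a matrix protein needed for eye formation, had 33.9 CPM and 26.5 CPM against 11.1 CPM and 2.79 CPM, and *Mfap4*, a microfibril protein, 38.3 CPM and 44.5 CPM against 12.6 CPM and 12.96 CPM. Of 10 matrix genes of the zonule and vitreous, *Mfap4* and *Col9a1* were called higher in both libraries and *Vcan* in the mutant library, or 2 of 10 and 3 of 10, against 2.28% and 3.23% of all genes. Those called lower throughout included *Fgf8*, *Crabp1*, *E130114P18Rik*, *Gng11*, *Tspan17* and *Kdr*, the last a receptor for vascular endothelial growth factor. *Kdr* had 9.75 CPM and 11.9 CPM in margin cells and 44.9 CPM and 41.2 CPM in other progenitors. The 6 endothelial genes, *Kdr* among them and the most abundant, summed to 10.7 CPM and 15.7 CPM in margin cells and 83.9 CPM and 80.5 CPM in other progenitors. Of those assessed, 4 of 4 and 5 of 5 were called lower, against 2.03% and 2.19% of all genes. Without cells of other types *Kdr* was the 1 endothelial gene with enough UMIs and was still called lower.

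The lowest genes named by size were *Trem2*, *C1qc*, *Pf4*, *Ctss*, *Fcrls*, *Hsd3b6*, *Mef2c* and *Lst1*, most of them genes of macrophages or platelets. *Trem2*, a receptor of macrophages, had 0 UMIs in margin cells of both libraries, which allows up to 0.731 CPM and 0.758 CPM, and 20.1 CPM and 18.8 CPM in other progenitors. Of these *Trem2* UMIs, 92.6% (control) and 70.3% (mutant) lay in 1 cell. *Pf4* had 54.2 CPM and 224 CPM in other progenitors, with 78.8% and 95.3% of its UMIs in 1 cell. These values describe a few cells among the other progenitors.

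Of 7 pigment epithelium genes assessed, *Otx2* and *Trpm1* were called higher and *Pmel* and *Dct* lower in the control library, and *Mitf*, *Otx2*, *Pmel*, *Dct* and *Trpm1* were called higher in the mutant library. In the control library 2.28% of all genes were called higher and 2.03% lower, and in the mutant library 3.23% higher. At 8000 to 20000 UMIs, 2 of 4 (*Otx2* and *Trpm1*) and 3 of 5 (*Pmel*, *Dct* and *Trpm1*) were called higher, against 1.87% and 1.93% of all genes, and none was called lower. Between genotypes, 1 of 7 such genes, *Dct*, was called higher in mutant margin cells, against 0.813% of all genes, and at 8000 to 20000 UMIs 2 of 6, *Pmel* and *Dct*, were, against 0.973%. *Otx2*, a homeodomain factor of pigment epithelium and photoreceptors, was called higher in both, with 17.3 CPM and 17.2 CPM in margin cells and 5.94 CPM and 7.11 CPM in other progenitors. *Trpm1*, a channel gene of pigment cells, had 36.6 CPM and 35.1 CPM against 14.5 CPM and 6.10 CPM, and the richest cell held 20% and 22.3% of its margin cell UMIs. With each cell given the same weight the control ratios of *Otx2* and *Trpm1* were -0.07 and -0.29. The melanosome protein gene *Pmel* had 8.77 CPM (6.15 to 12.1) in control and 15.4 CPM (11.8 to 19.8) in mutant margin cells, far below 6452 CPM and 5055 CPM in cells with pigment epithelium markers. In mutant margin cells 1 cell held 68.9% of the *Pmel* UMIs, and 1 cell held most of the *Dct* UMIs. By cells the order of *Pmel* was the other way, with a UMI in 29 of 207 control members (14.0%) and 17 of 229 mutant members (7.42%). *Myrf* itself, a gene on chromosome 19 (19:10208272-10240748, minus strand, GRCm38), had 3 UMIs in control and 1 in mutant margin cells, against 74.1 CPM and 20.4 CPM in cells with pigment epithelium markers.

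Within the depth of 8000 to 20000 UMIs, levels of *Ccnd2* and *Ccnd1* differed with the number of margin genes in a cell, not always in a steady order. Cells with 0 margin genes were here the other retinal progenitors, which had no neuronal gene, whereas this was not required of cells with 1 or more. *Ccnd2* had 23.4 CPM (16.1 to 32.9) in control cells with 0 margin genes, 33.5 CPM (26.4 to 41.8) with 1, 75.3 CPM (59.2 to 94.4) with 2 and 163 CPM (122 to 215) with 3 or 4. In the mutant library *Ccnd2* had 15.4, 26.4, 88.2 and 77.7 CPM in the same order, so the last step was not seen there. *Ccnd1* decreased from 829 CPM (782 to 878) to 814, 603 and 417 CPM (348 to 495) in the control library. In the mutant library the lowest *Ccnd1* level was also that of cells with 3 or 4 margin genes, at 420 CPM (360 to 488). Cells with 3 or 4 margin genes numbered 19 and 27, and *Sfrp2*, a Wnt-binding protein of retinal progenitors, was lower in them at 2079.6 CPM and 2218 CPM than in cells with 2, at 2969.7 CPM and 2997 CPM. *Ccnd1* was thus lowest in cells with 3 or 4 margin genes in both libraries. This rests on few cells, split by genes that the rule used, and was not tested.

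**Figure D4:**
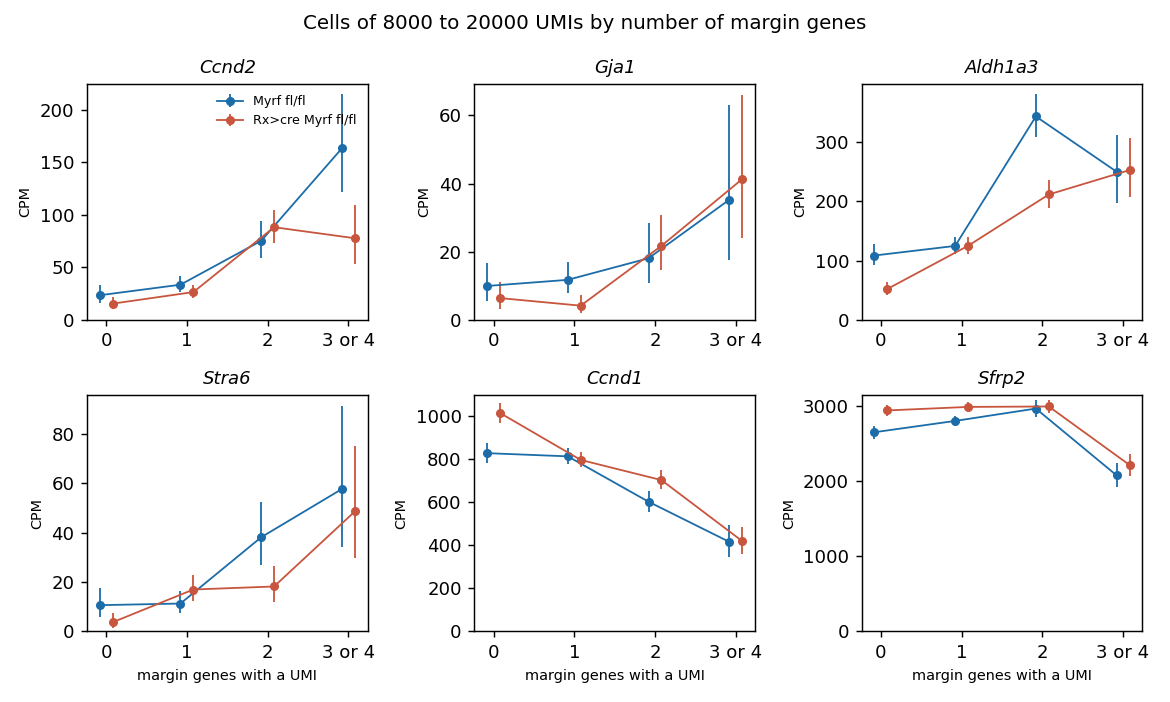
Levels (y axes, CPM from 0) of 6 genes in cells of 8000 to 20000 UMIs by the number of margin genes with a UMI (x axes), in the control (blue) and mutant (red) library with 95% Poisson intervals. Ccnd2, Gja1, Aldh1a3 and Stra6 are higher, and Ccnd1 lower, in cells with 2 or more margin genes than in cells with 0. Cells with 0 margin genes also had no neuronal gene, which was not required of the others.

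Between genotypes, margin cells were 3.75% (3.26 to 4.29) of kept control barcodes and 3.59% (3.15 to 4.08) of kept mutant barcodes, a difference of -0.158 percentage points (-0.844 to 0.518). Of the eye field gate, with 940 and 1127 cells, they were 22.0% (19.4 to 24.8) and 20.3% (18.0 to 22.8), a difference of -1.70 points (-5.26 to 1.82). At 5000 UMIs per cell the shares of all cells were 2.58% (2.10 to 3.15) and 2.44% (2.02 to 2.93). The direction turned with an upper limit of 20000 UMIs, where the shares were 2.24% and 2.81%, and with one of 2000 UMIs, where they were 0% and 0.1797%. For the first 2 of these differences the interval for counting error included 0, while the spread between embryos is not known from pooled libraries.

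Mutant margin cells were compared with control margin cells over 10577 genes. In the mutant 86 were called higher (0.813%) and 60 lower (0.567%). Of the 86, 13 were also called higher in other progenitors, where 55 of them had enough UMIs, and of the 60, 4 of 43 were also called lower. Of all genes of other progenitors, 0.844% were called higher and 1.34% lower. No gene of the margin, neural progenitor, Wnt, BMP or Notch list was called. In the neurogenesis list 1 of 11 was called higher, *Stmn2*, a neuronal microtubule regulator, with 5.12 CPM (3.17 to 7.82) in control and 10.6 CPM (7.65 to 14.3) in mutant margin cells and a log2 ratio of 1.02 (0.26 to 1.88). It was also called without cells of other types, and not at 8000 to 20000 UMIs. *Kit*, a receptor of melanocytes and their precursors, was called higher, with 7 and 19 UMIs over all margin cells, as was the lens list gene *Cryab*, with 3 and 24 UMIs. Without cells of other types *Kit* was still called, but *Cryab* was not. At 8000 to 20000 UMIs *Cryab* was called, but *Kit* was not. Over the 14 assessed margin genes outside the rule the median log2 ratio was 0.00, with 7 above 0.

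The genes named by size as higher in mutant margin cells were *Sfn*, *Krt15*, *Wdfy1*, *Anxa2*, *Hspb1*, *Dct*, *Ramp2* and *Tnfaip6*. *Wdfy1*, an endosomal adaptor, had 5.12 CPM (3.17 to 7.82) in control and 51.3 CPM (44.5 to 58.8) in mutant margin cells. Its log2 ratio was 3.26 (2.67 to 4.05) in margin cells and 3.82 (3.05 to 5.03) in other progenitors, and its level in cells with pigment epithelium markers went from 4.82 CPM to 61.1 CPM. *Wdfy1* was therefore higher in every class examined. *Tnfaip6*, a hyaluronan-binding protein, had 8.29 CPM (5.74 to 11.6) and 20.2 CPM (16.02 to 25.1), with a log2 ratio of 1.26 (0.69 to 1.91) in margin cells and 0.17 (-0.43 to 0.83) in other progenitors. Its ratio among cells of 8000 to 20000 UMIs was 0.99 and was not called.

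*Sfn* and *Krt15*, genes of stratified epithelium, were concentrated in few cells. Of the mutant UMIs, 65.4% of *Sfn* and 54.1% of *Krt15* lay in 1 cell. The 8 surface ectoderm genes summed to 8.53 CPM in control and 52.3 CPM in mutant margin cells, with *Krt18* and *Krt15* the most abundant, and 3 mutant members had at least 3 of these genes against 0 control members. Without cells of other types *Sfn*, *Krt15* and *Hspb1* had under 20 UMIs in all, and *Anxa2*, a membrane-binding protein, had a log2 ratio of 0.68 (-0.58 to 2.12) in place of 3.03 (2.17 to 4.35). *Dct*, an enzyme of melanin synthesis, had 3.41 CPM and 9.35 CPM, and 78.4% of the mutant UMIs lay in 1 cell. The 6 haemoglobin genes were called higher in mutant margin cells, against 0.813% of all genes. At 8000 to 20000 UMIs 3 of 6 were called higher, against 0.973% of all genes, and without cells of other types 4 of 6, against 0.543%. Haemoglobin took 6.05% of UMIs of all kept control barcodes and 11.7% of mutant barcodes, and its part in these values was not tested.

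The genes named by size as lower in mutant margin cells were *Eif3j2*, *Nckap5l*, *Dusp6*, *Dazl*, *Agtpbp1*, *Hist1h2bh*, *Sec24a* and *Bmi1*. *Eif3j2*, a copy of a translation initiation factor gene whose reads may be split with *Eif3j1*, had 31.7 CPM (26.5 to 37.6) in control and 3.28 CPM (1.75 to 5.61) in mutant margin cells. Its log2 ratio was -3.17 (-4.22 to -2.45), and it was -2.81 (-3.83 to -2.05) in other progenitors. Like *Wdfy1*, *Eif3j2* differed between the libraries in every class examined, with 20.5 CPM and 6.52 CPM in cells with pigment epithelium markers. *Bmi1*, a Polycomb protein, had 19.3 CPM and 8.84 CPM, and its log2 ratio of -1.10 (-1.74 to -0.53) was -0.42 (-1.42 to 0.60) among cells of 8000 to 20000 UMIs. *Dazl*, an RNA-binding protein of germ cells, had 12.9 CPM (9.68 to 16.9) and 5.30 CPM (3.28 to 8.11) in margin cells, against 0.743 CPM and 0 CPM in other progenitors.

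*Dusp6*, a phosphatase induced by FGF signalling that limits it, had 20.7 CPM (16.5 to 25.6) in control and 8.59 CPM in mutant margin cells. It was found in 31.4% of control and 12.7% of mutant members, and in 10.6% and 4.17% after thinning. Its log2 ratio was -1.25 (-1.89 to -0.68) in margin cells and 0.04 (-0.56 to 0.67) in other progenitors, intervals that do not overlap, and the difference was not tested. *Dusp6* was called lower also among cells of 8000 to 20000 UMIs, at -1.19 (-2.09 to -0.37), where 0.870% of all genes were. With at least 3 margin genes required its ratio was -0.50. *Spry2*, another inhibitor of the pathway, had 24.4 CPM (19.8 to 29.6) and 13.6 CPM (10.2 to 17.8), a log2 ratio of -0.83 (-1.34 to -0.35) that did not reach 2-fold. At 8000 to 20000 UMIs *Spry2* was called lower, at -1.32, and *Spry1*, an inhibitor of the same family, was called higher, at 1.09, where 0.973% of all genes were called higher. Over the 14 FGF genes 4 lay above 0 and the median was -0.09, against -0.02 over all genes.

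**Figure D5:**
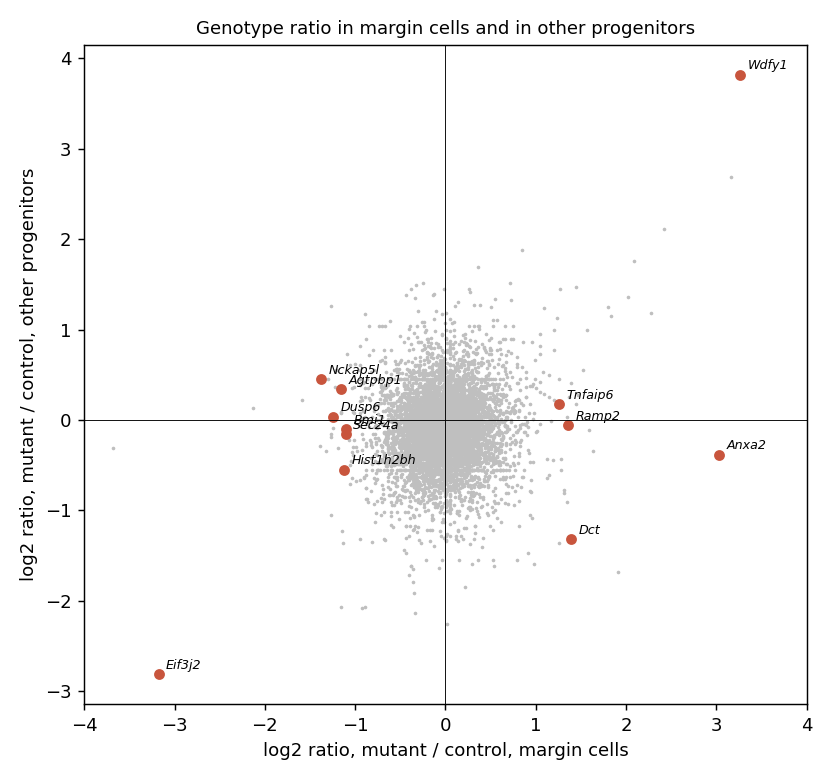
Each point is a gene with at least 50 UMIs over both classes and libraries, with its log2 ratio of mutant over control in margin cells (x axis) and in other progenitors (y axis). Wdfy1 and Eif3j2 lie far from 0 on both axes, whereas Dusp6, Tnfaip6 and Ramp2 lie near 0 on the y axis; Sfn, Krt15, Hspb1 and Dazl had under 20 UMIs in other progenitors and are not drawn.

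No gene of either cell cycle list was called between genotypes at all depths, and at 8000 to 20000 UMIs *Cdc45*, a replication factor, was called higher in mutant margin cells, at 1.01. Of 20 S phase genes, 19 had a log2 ratio above 0 in mutant margin cells, with a median of 0.16, and their sum was 1851 CPM (1809 to 1893) in control and 2065 CPM (2020 to 2110) in mutant margin cells. Of 20 G2 and M phase genes, 1 lay above 0, with a median of -0.22, and their sum was 3635 CPM (3577 to 3694) and 3124 CPM (3070 to 3180). In other progenitors the medians were 0.02 and -0.15, with 11 and 7 genes above 0. The genes of a phase vary together from cell to cell, so these counts are not separate observations.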

How the data were processed

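Eye cups at e13.5 were dissociated with papain, and the authors made 2 libraries on the 10X Genomics platform. The deposited values are UMI counts per gene and barcode, made with Cell Ranger 7.1.0 on mm10 per the labels, without normalization. Whether intronic reads or strand were counted is not given in the sources used here. Barcodes were kept with 200 or more genes and up to 15% mitochondrial UMIs. The labels also name Seurat 4.1.1. A limit of 2000 UMIs per cell was run as an alternative only.

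Members were picked by their own counts, so the rule's genes are described only, and the 22 genes of all gates were left out of counts of calls. Counts were summed by class and library in Python 3.11.15 with scipy 1.17.1, and compared as a log2 ratio with 1 UMI added to each sum and an exact conditional binomial interval. CPM intervals are exact Poisson, shares have Clopper-Pearson and differences Newcombe intervals, and an upper limit for 0 rests on 3 counts or, for shares of cells, on the interval. The interval code was checked on simulated counts. Doublets were marked with Scrublet in scanpy 1.11.5 as an alternative and kept otherwise. Coordinates came from GENCODE on GRCm38 and promoters from RefSeq.

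Members and gene lists were chosen with earlier results of these data known. Apart from the lists, genes were named by size, with the 12 highest and 8 lowest in margin cells by the smaller of both libraries' ratios (at least 100 UMIs) and the 8 highest and 8 lowest between genotypes (at least 50 UMIs), without sex-linked, ribosomal protein, mitochondrial and haemoglobin genes or unnamed gene models. Genes called throughout were singled out after their values were seen. Some genes are not reported here.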

Additional observations from a re-analysis of the deposited data

Results flagged for a closer look

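When margin cells were set against other progenitors, 2 genes were called lower in the control library and higher in the mutant library, and these differences were not tested. The log2 ratio of *Dct* was -1.56 (control) and 1.15 (mutant), and that of *Pmel* was -1.26 and 1.09. Without cells of other types both genes were called lower in the control library, and *Dct* but not *Pmel* was called higher in the mutant library. In mutant margin cells 1 cell held 78.4% of the UMIs of *Dct* and 68.9% of those of *Pmel*, and in control other progenitors these shares were 25% and 14%.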

How the results depend on the processing

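No paired analysis was possible because there was 1 library per genotype, and for the same reason no replicate could be left out. Shares of margin cells in the control and mutant library were 4.86% and 4.48% at a mitochondrial limit of 5%, 2.24% and 2.81% at an upper limit of 20000 UMIs, 0% and 0.1797% at 2000 UMIs (the order turned under both limits), 1.18% and 1.00% with at least 3 margin genes, 5.91% and 5.08% with up to 1 UMI allowed of each exclusion gene, and 2.58% and 2.44% after thinning to 5000 UMIs. Genes higher in margin cells of both libraries, 94 as reported, were 54 below 20000 UMIs, 38 at 8000 to 20000 UMIs, 55 with each cell given the same weight and 200 at 1.5-fold. Genes lower in both, 111 as reported, were 28 below 20000 UMIs, 21 at 8000 to 20000 UMIs, 38 with 2 of 4 further progenitor genes needed, 198 with neuronal genes kept, 53 with at least 50 UMIs per gene, 233 with at least 1, and 29 without cells of other types, a setting chosen after seeing the data. Genes higher in mutant margin cells, 86 as reported, were 21 with at least 50 UMIs, 158 with at least 1, 169 at 1.5-fold and 57 without cells of other types. Genes lower, 60 as reported, were 18, 98 and 169 under the first 3 of these settings.

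Direction turned for few named genes. The log2 ratio of *Pmel* became -2.34 in the mutant library with at least 3 margin genes, 0.65 in the control library at 8000 to 20000 UMIs and -0.26 in the mutant library with each cell given the same weight. Under that last setting *Dct* in the mutant library was -1.04, and in the control library *Trpm1* was -0.29 and *Otx2* was -0.067. *Gap43* became -0.84 and -1.10 with neuronal genes kept. The cause of these turns was not tested. Margin cells and other progenitors differ in depth and in makeup, and 1 pooled library per genotype cannot tell genotype apart from preparation. Genes under 20 UMIs were not compared.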
